A study of Mus musculus with 2 samples.

Results

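In the perinatal mouse brain, 75 genes carried at least 3 more N6-methyladenosine (m6A) sites of the canonical DRACH motif in a cerebellum library than in a cerebrum library, although the cerebrum library listed the larger number of sites overall. They were 75 of the 9577 autosomal protein_coding genes of the GENCODE M21 annotation with at least 1 DRACH site in the cerebrum library, or 0.783%. The opposite difference, at least 3 more in the cerebrum, was found in 4564 of these genes, or 47.7%. A site was counted in a gene when it lay within the gene's interval on the same strand of the mm10 (GRCm38) genome, introns included. The genes were chosen by their DRACH site numbers in the same 2 libraries, so those numbers are given here as a description and carry no test.

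Both libraries were made with GLORI from poly(A)+ RNA of the cerebellum and of the cerebrum at postnatal day 0 (P0), each labelled female. The methods describe a single mouse as the source of both samples, an F1r hybrid from the cross of a C57BL/6J (C57) mother with a PWK/PhJ (PWK) father, and both libraries received the deamination treatment. Each tissue was represented by 1 library with no replicate, so every difference below is a difference between these libraries, and the 95% Wilson interval beside each share of sites allows for counting error alone. Sites of 1 gene share transcripts and are not replicates of each other. The authors listed a site when its methylation rate was above 0.1 and its read count above 8, and the lists give positions with neither rates nor read counts, so the sequencing depth is unknown. A site absent from a list may be unmethylated, or its transcript may be unexpressed or too thinly covered, and these cannot be told apart. In bulk tissue, fewer cells of a type and less RNA per cell cannot be told apart either.

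m6A is the most abundant internal modification of messenger RNA and is placed while the transcript is being made by a methyltransferase complex built on METTL3 and METTL14. The complex acts mostly within DRACH, in which the central A is methylated, D stands for any base but C, R for a purine and H for any base but G, and its marks are known to gather in long exons, in the 3′ UTR and around the stop codon. Reader proteins bound to the mark influence splicing, translation and decay of the transcript, and loss of the mark disturbs the development of both cerebellum and cerebrum. GLORI converts unmethylated adenosine with glyoxal and nitrite so that it is read as G, while m6A is still read as A, which places each mark at a single base.

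Sites of the genes with the largest differences show what was counted. For each of 12 genes, taken in order of the difference with ties broken by more cerebellum sites, the DRACH site nearest to the stop codon that was listed only in the cerebellum is printed, followed by the nearest site listed in both libraries. Each is 21 nt of the mm10 transcript strand written as DNA, 5′ to 3′, with the DRACH 5-mer in capitals and the called adenosine at its centre. Here and below, distances before and after the stop codon are counted from its last base. Onecut2 and Aqp4 rank among the same genes and are not printed.
Zfhx4, cerebellum only, 3′ UTR, 68 nt after the stop codon, chr3:5413205-5413225 (+ strand): aaagacttTAACTgcagttcc
Zfhx4, both libraries, 3′ UTR, 62 nt after the stop codon, chr3:5413199-5413219 (+ strand): ttaaaaaaAGACTttaactgc
Zfhx3, cerebellum only, CDS, 16 nt before the stop codon, chr8:108957076-108957096 (+ strand): gtaggaacGGACAccttcaga
Zfhx3, both libraries, 3′ UTR, 14 nt after the stop codon, chr8:108957106-108957126 (+ strand): ttgaagatGAACAattacaaa
Ndst4, cerebellum only, 3′ UTR, 303 nt after the stop codon, chr3:125725063-125725083 (+ strand): taatgctcTGACTgtatgcaa
Ndst4, both libraries, CDS, 1958 nt before the stop codon, chr3:125438434-125438454 (+ strand): ggaagactGGACAattttcca
Rora, cerebellum only, 3′ UTR, 104 nt after the stop codon, chr9:69379055-69379075 (+ strand): gacaaattTAACTgagacact
Rora, both libraries, CDS, 82 nt before the stop codon, chr9:69378869-69378889 (+ strand): atatacccAGACAttgtgcga
Mab21l1, cerebellum only, CDS, 6 nt before the stop codon, chr3:55784057-55784077 (+ strand): gtttggaaAAACTttagagga
Mab21l1, both libraries, 3′ UTR, 64 nt after the stop codon, chr3:55784127-55784147 (+ strand): cgaaatgaAAACTtcctggtt
Lhx1, cerebellum only, CDS, 46 nt before the stop codon, chr11:84519585-84519605 (- strand): agctacggGAACCatttgtct
Lhx1, both libraries, 3′ UTR, 1017 nt after the stop codon, chr11:84518522-84518542 (- strand): tcaaaaacAAACTtttgagca
Shox2, cerebellum only, CDS, 39 nt before the stop codon, chr3:66973679-66973699 (- strand): cggatctcAGACTgaaagcta
Usp29, cerebellum only, 3′ UTR, 44 nt after the stop codon, chr7:6963803-6963823 (+ strand): caagatgaAAACTtgacataa
Usp29, both libraries, CDS, 117 nt before the stop codon, chr7:6963642-6963662 (+ strand): tttttgagGAACTgttgaaaa
Otx2, cerebellum only, CDS, 52 nt before the stop codon, chr14:48658748-48658768 (- strand): ttcaatgcTGACTgcttggat
Otx2, both libraries, 3′ UTR, 191 nt after the stop codon, chr14:48658505-48658525 (- strand): cctgaaatGGACAaaccaatc
Ntng1, cerebellum only, 3′ UTR, 124 nt after the stop codon, chr3:109782548-109782568 (- strand): agagggccTAACTgaactaag
Ntng1, both libraries, 3′ UTR, 70 nt after the stop codon, chr3:109782602-109782622 (- strand): attgccacTGACAtagaaaac
Dscam, cerebellum only, CDS, 34 nt before the stop codon, chr16:96593083-96593103 (- strand): ttgaaaggAAACAatccctac
Dscam, both libraries, 3′ UTR, 18 nt after the stop codon, chr16:96593031-96593051 (- strand): cacctgatGGACAgcggttgt
Chrna4, cerebellum only, 3′ UTR, 234 nt after the stop codon, chr2:181024510-181024530 (- strand): tggcttacAGACAgcacacac
Chrna4, both libraries, CDS, 643 nt before the stop codon, chr2:181028705-181028725 (- strand): aaccgcatGGACAcagcagtc

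In Zfhx4 both printed sites lay in the last exon, exon 11 of 11, at 62 and 68 nt downstream of the stop codon, so that their 21 nt windows overlap and the adenosines lie within a few bases of each other. In Zfhx3, Dscam and Mab21l1 the cerebellum-only site stood just upstream of the stop codon, at 16, 34 and 6 nt, while the shared site lay just downstream, at 14, 18 and 64 nt. In Ndst4, the shared site nearest to the stop codon lay 1958 nt upstream in exon 2 of 14, and the cerebellum-only one lay 303 nt downstream in the last exon. Shox2 held no DRACH site common to both libraries.

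The libraries as a whole and the markers of their tissues are described first. The cerebellum library listed 79355 sites, 62.1% of them DRACH, and the cerebrum library 188295 sites, 46.7% of them DRACH. Of the 9577 genes, 85.5% had fewer DRACH sites in the cerebellum, 10.2% the same number and 4.33% more, and the median difference was -2. The lists also held chromosome Y sites, 14 for the cerebellum and 30 for the cerebrum, although both samples are labelled female, and the file of cerebrum sites was deposited under a name that also carries the study's abbreviation for cerebellum. Each library is named here by the tissue recorded for its sample.

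The markers sorted the libraries by region, with gaps. All 15 markers of the cerebrum had more DRACH sites in the cerebrum library, 281 against 50 in sum, and Tbr1 and Dlx1, which define cortical projection neurons and forebrain interneurons, had none in the cerebellum library. The 15 markers of cerebellum and hindbrain summed to 62 DRACH sites in the cerebellum library and 33 in the cerebrum library. Of them 7, among them En1 with 5, En2 with 8 and Barhl1 with 11, had DRACH sites in the cerebellum library only. The 3 with a cerebrum DRACH site were divided. Zic4 had 4 in the cerebellum and 18 in the cerebrum, Zic1 had 14 in each, and Lhx1, itself a member, had 11 and 1. Atoh1, Pax2 and Skor2, which mark granule cell progenitors, inhibitory interneurons and Purkinje cells, had no site in either library. Neurod1, a factor of the granule cell lineage, had no DRACH site in the cerebellum library and 15 in the cerebrum library. Markers of neighbouring midbrain, a list of 25 genes written after the members were known, summed to 105 DRACH sites in the cerebellum library and 24 in the cerebrum library. These sums include the members Otx2 with 11 and 2, Shox2 with 11 and 1 and Lef1 with 8 and 2, which were chosen by such differences. Of that list 10 genes had DRACH sites in the cerebellum library only, such as Pou4f2 with 9, Sox14 with 10, Gata3 and Tal1 with 7 each and Pax7 with 6, while 11, among them Foxa2, Pitx3 and Th, were at 0 in both. A site list does not measure RNA level, and the part of the dissection in the results was not tested.

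Marker sites of other cell types were fewer in the cerebellum library in 5 of the lists. The sums were 70 and 92 for astrocytes and Bergmann glia, 33 and 48 for the oligodendrocyte lineage, 9 and 24 for endothelium and pericytes, 5 and 12 for microglia, and 17 and 40 for meninges, for cerebellum and cerebrum. The astrocyte sums include the member Aqp4 with 16 and 7. Over all tested genes the sums were 48925 in the cerebellum library and 88474 in the cerebrum library. Skeletal muscle markers had 0 DRACH sites in both. The choroid plexus list alone was higher in the cerebellum library, with 12 against 8. Of its 12 sites there, 11 were those of Otx2, itself a member, while Ttr, Folr1 and Kl, which define that epithelium, had no DRACH site in either library.

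Together the 75 genes held 1268 DRACH sites in the cerebellum library, against 861 in the cerebrum library. Of these, 689 were common to both, 579 were listed only in the cerebellum and 172 only in the cerebrum. The median gene had 13 cerebellum and 8 cerebrum sites, and the difference ran from 3 to 30 with a median of 4. At least 10 more sites were held by 8 genes, 5 to 9 more by 21, and 3 or 4 more by 46. In 28 of the genes the cerebellum number was at least double that of the cerebrum. The genes lay on all 19 autosomes and none of them shared a site with another protein_coding gene of its strand. At the edge of the rule, the 33 genes with exactly 3 more sites had a median of 10 in the cerebellum and 7 in the cerebrum, and the 84 genes with exactly 2 more, just outside it, had 6 and 4.

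**Figure D1:**
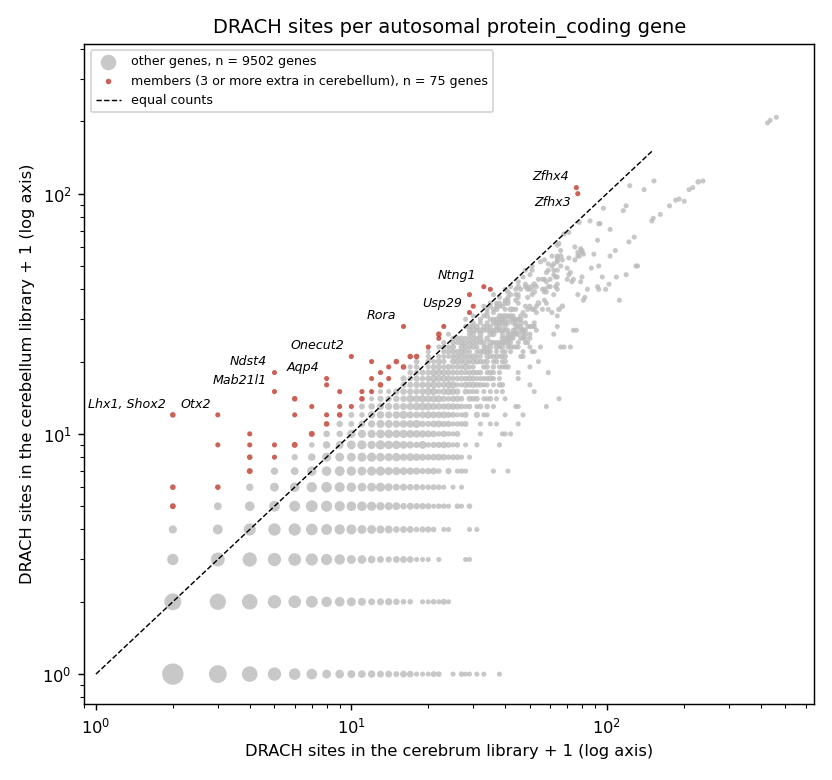
DRACH sites per gene in the cerebrum library (horizontal, number + 1, log axis) and in the cerebellum library (vertical, number + 1, log axis); point area grows with the number of genes at the same position. The 75 members (red) lie above the dashed line of equal counts by their definition, while most of the other 9502 genes (grey) lie below it.

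Most of what the cerebrum library listed in these genes was listed in the cerebellum too. Of their 861 cerebrum sites, 80.0% (77.2% to 82.6%) were also found in the cerebellum, against 45.5% (45.2% to 45.9%) in the other 9502 genes, a contrast that the choice of the genes largely sets. In 18 of the 75 genes no site was listed in the cerebrum alone. The 5 of these with the most sites found only in the cerebellum were Ndst4 with 13, Lhx1 and Mab21l1 with 10 each, Ebf3 with 8 and Lef1 with 6. At the other end, 5 genes had no common site at all, namely Shox2, Hs6st3, Sgcz, Zfp804b and Selenot. In these the libraries listed different adenosines of the same gene, and Shox2 and Selenot had 1 cerebrum site each. Whether the unlisted adenosines were unmethylated cannot be told from the lists.

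**Figure D2:**
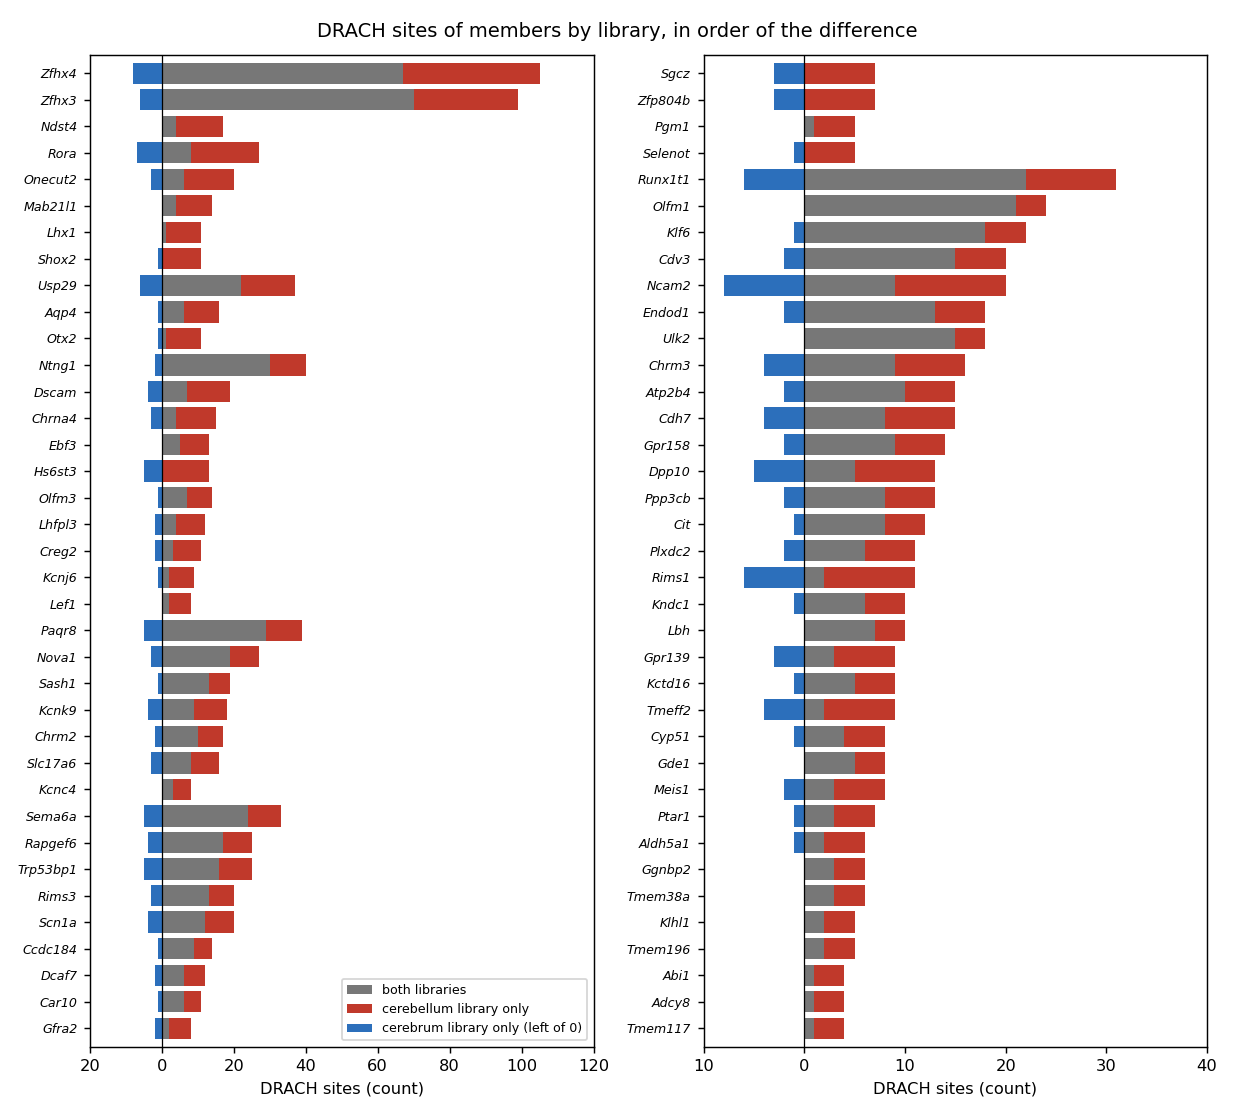
DRACH sites of each member described here, 1 of the 75 left out, in order of the difference between the libraries, with sites of both libraries in grey, cerebellum-only sites in red and cerebrum-only sites in blue to the left of 0 (horizontal axes: number of sites, on different scales in the 2 panels). Zfhx4 and Zfhx3 hold the most sites, with 105 and 99 in the cerebellum, and 18 genes have no blue bar.

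The genes were read by role, in groups formed after their values were seen, and of each pair of numbers below the cerebellum stands first. Transcription factors and nuclear cofactors were the largest group with 16 genes, and they held 422 cerebellum and 273 cerebrum DRACH sites. Of the 422, 192 were found only in the cerebellum. Of the 11 genes with at least 9 more sites, 8 belonged to this group.

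Zfhx4 and Zfhx3 encode very large homeodomain and zinc finger proteins of developing neurons. Zfhx4 had 105 cerebellum and 75 cerebrum DRACH sites, 67 of them common, and Zfhx3 had 99 and 76, 70 of them common. Their marks covered a large part of the motifs available: on the longest coding isoform, 31.2% of the 333 DRACH motifs of Zfhx4 were called in the cerebellum and 22.5% in the cerebrum, and 27.5% and 21% of the 357 motifs of Zfhx3. In Zfhx4 the most crowded exon was exon 10 of 11, a coding exon of 5403 nt with 39 cerebellum and 22 cerebrum sites. In Zfhx3 it was the last exon, of 6249 nt, with 38 and 27. All cerebellum-only sites of both genes lay between the outermost cerebrum sites, within the stretch that was also marked there, and of the 38 in Zfhx4 and 29 in Zfhx3, 28 and 22 were in the CDS.

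The factors with the most uneven numbers were those with few cerebrum sites. Lhx1, a LIM homeodomain factor of early Purkinje cells and of neurons in several other regions, had 11 cerebellum sites and 1 cerebrum site. The cerebrum site, 1017 nt downstream of the stop codon, was also listed in the cerebellum, and the other 10 cerebellum sites all lay upstream of it. Shox2, a homeodomain factor of skeletal, cardiac and brain development, likewise had 11 and 1, and its single cerebrum site, 1692 nt downstream of the stop codon, lay downstream of all 11 cerebellum sites, the first of them 39 nt before and the last 1646 nt after the stop codon. Otx2, a homeodomain factor of forebrain, midbrain and choroid plexus, had 11 and 2 sites, all in its last exon of 1650 nt, with 1 in common. Lef1, a DNA-binding effector of the Wnt pathway, had 8 and 2, and 5 of its 8 cerebellum sites were in the 5′ UTR. Otx2, Lef1 and Shox2 are 3 of the 4 midbrain markers with a cerebrum DRACH site, and the part of midbrain tissue in these counts was not tested.

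Mab21l1, a small intronless gene of the Mab21 family expressed in the developing eye and cerebellum, had 14 cerebellum and 4 cerebrum sites, and the 4 were all among the 14. Of the 52 DRACH motifs of its 2492 nt transcript, 26.9% were called in the cerebellum and 7.69% in the cerebrum. Ebf3, an early B-cell factor of differentiating neurons, followed the same pattern with 13 and 5, all 13 in the 3′ UTR of its last exon. Rora, the orphan nuclear receptor that is lost in staggerer mice and needed for Purkinje cells to mature, had 27 and 15, but only 8 in common. Of its 19 cerebellum-only sites 10 were in introns, and the 9 on the isoform spread over a last exon of 9450 nt, the nearest 104 nt and the farthest 8968 nt after the stop codon. Onecut2, a cut-homeodomain factor of neurons and liver, had 20 and 9, all in a last exon of 14643 nt, and 12 of its 14 cerebellum-only sites lay in the first 2326 nt of the 3′ UTR.

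In the other 6 genes of the group the difference was 3 or 4. Runx1t1, a transcriptional corepressor, had 31 and 28 sites, Trp53bp1, a DNA damage adaptor, 25 and 21, and Klf6, a zinc finger factor, 22 and 19. Lbh, a small nuclear cofactor of limb and heart, had 10 and 7, and Meis1, a homeodomain partner of Hox and Pbx proteins that is also present in granule cells, had 8 and 5. Zfp804b, a zinc finger protein whose cerebellum and cerebrum sites did not coincide at any position, had 7 and 3. These counts leave little beyond the threshold of 3, and Meis1 fell under it when only exonic sites were counted.

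**Figure D3:**
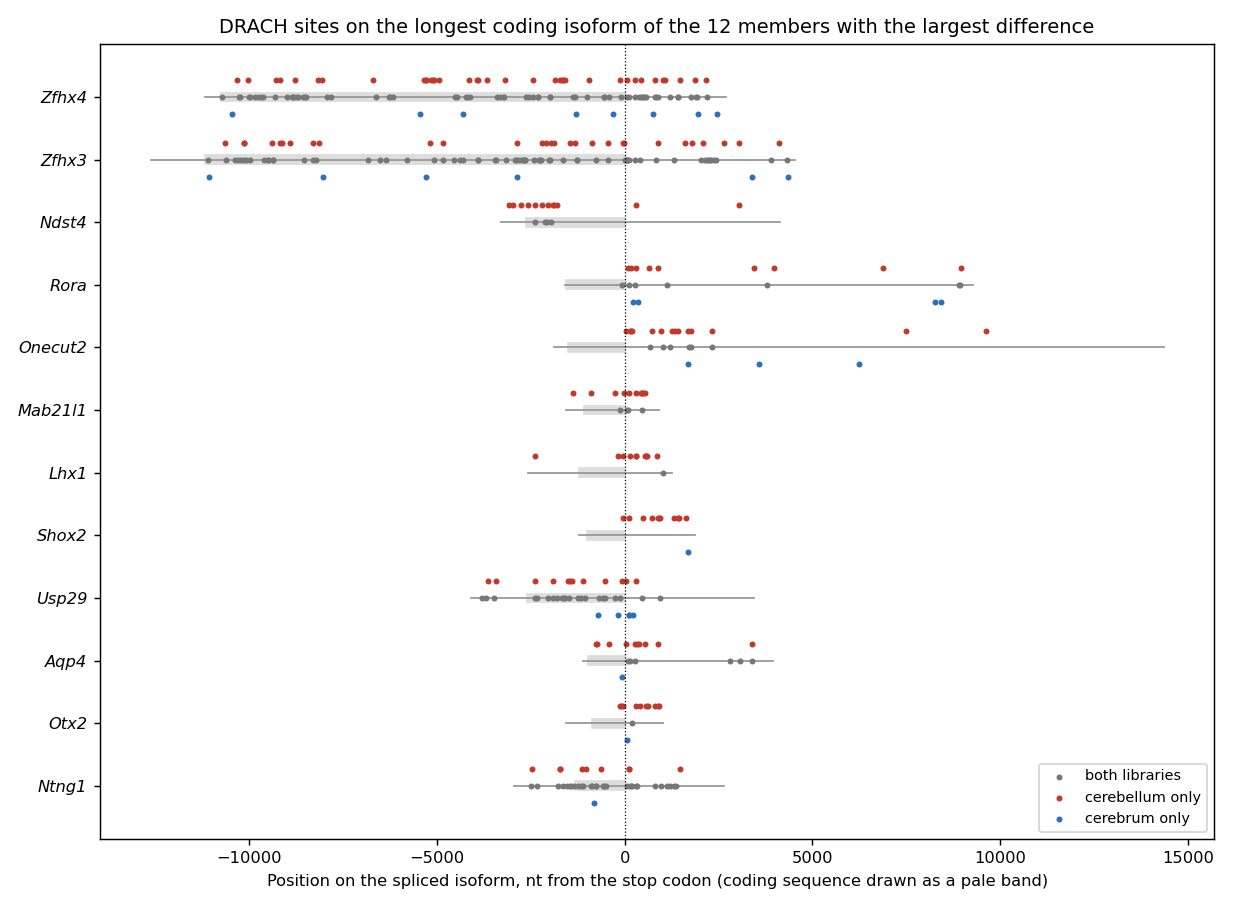
DRACH sites on the longest coding isoform of the 12 genes first in order of the difference (the last place, tied at 8, went to the gene with the most cerebellum sites), by their distance from the stop codon in the spliced transcript (horizontal, nt, negative upstream; coding sequence as a pale band, UTRs as a line). Red points above each line are cerebellum-only sites, grey points sites of both libraries and blue points below it cerebrum-only sites. In Zfhx4 and Zfhx3 the classes alternate along the transcript, and in Lhx1, Shox2 and Otx2 nearly all points are red.

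Receptors of transmitters and growth factors, with their partners, numbered 9 and held 146 cerebellum and 107 cerebrum sites. Chrna4, a subunit of the main neuronal nicotinic acetylcholine receptor, had 15 and 7, and 7 of its 11 cerebellum-only sites were in the 3′ UTR. The muscarinic receptors Chrm2 and Chrm3 had 17 and 12, and 16 and 13. Paqr8, a membrane progestin receptor, was densely marked in both libraries with 39 and 34 sites, all in its last exon of 5069 nt. The orphan receptors Gpr158 and Gpr139 had 14 and 11, and 9 and 6. Kctd16, an auxiliary subunit of GABA-B receptors, had 9 and 6, and Gfra2, a coreceptor for neurturin, had 8 and 4.

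Channels, pumps and transporters, with their partners, also numbered 9, with 121 and 78 sites. Aqp4, the water channel of astrocyte endfeet, had 16 in the cerebellum and 7 in the cerebrum. The 10 astrocyte and Bergmann glia markers, Aqp4 among them, together had 70 and 92. Kcnj6, the GIRK2 inward rectifier channel mutated in weaver mice, whose granule cells die, had 9 and 3, but on exons 6 and 0. Kcnk9, a two-pore leak potassium channel, had 18 and 13 in a last exon of 11956 nt, and Kcnc4, a Kv3 channel, had 8 and 3, with each cerebrum site also listed in the cerebellum. Scn1a, a sodium channel of fast-spiking interneurons, had 20 and 16, and 7 of its 8 cerebellum-only sites were in the CDS. Slc17a6, the vesicular glutamate transporter VGLUT2 of hindbrain, midbrain and thalamic neurons, had 16 and 11, with 7 sites in the 5′ UTR counting both libraries, and its difference fell under 3 on exons. The calcium pump Atp2b4 had 15 and 12, Dpp10, an auxiliary subunit of Kv4 channels, 13 and 10, and Tmem38a, a cation channel of intracellular calcium stores, 6 and 3.

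Adhesion, guidance and matrix proteins numbered 11, with 203 and 154 sites. Ntng1, the membrane-anchored netrin-G1 of thalamic and other axons, had 40 cerebellum and 32 cerebrum sites, 30 of them common, and 35.1% of the 111 motifs of its longest isoform were called in the cerebellum. It carried the most 5′ UTR sites of the 75 genes, 8 common to both libraries and 3 more in the cerebellum. Dscam, an immunoglobulin superfamily receptor for neurite self-avoidance, had 19 and 11, with 6 of its 12 cerebellum-only sites in the CDS. Sema6a, a transmembrane semaphorin needed for granule cell migration, had 33 and 29, but 4 of its 9 cerebellum-only sites were intronic and its difference fell under 3 on exons. The secreted olfactomedin proteins Olfm1 and Olfm3 had 24 and 21, and 14 and 8, and in Olfm1 every cerebrum site was also listed in the cerebellum. The type II cadherin Cdh7 had 15 and 12.

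The difference of some adhesion genes lay in introns. Ncam2, a cell adhesion molecule of the olfactory system, had 20 and 17, and all 11 of its cerebellum-only sites were intronic. Sgcz, a sarcoglycan, had 7 and 3, all intronic and none common to both libraries. Tmeff2, a transmembrane protein with follistatin domains, had 9 and 6, and 4 of its 7 cerebellum-only sites were intronic. Plxdc2, a plexin-domain transmembrane protein, had 11 and 8, and Car10, a carbonic anhydrase-related protein that binds neurexins, had 11 and 7, and most of their cerebellum-only sites were on exons.

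Both heparan sulfate enzymes stood high in the order of differences, with 30 cerebellum and 9 cerebrum sites together. Ndst4, an N-deacetylase and N-sulfotransferase that starts sulfation of the chain, had 17 and 4. Its 4 cerebrum sites, all also listed in the cerebellum, lay in exon 2 of 14, a mostly coding exon of 1215 nt that held 12 of its cerebellum sites, and 3 of its cerebellum sites were in the 5′ UTR. Hs6st3, a 6-O-sulfotransferase of the same chains, had 13 and 5, none of them common: all 5 cerebrum sites were intronic, while 8 of the 13 in the cerebellum were on the coding isoform. On exons alone Hs6st3 therefore had 8 sites against 0, and it was then no longer among the genes with at least 1 cerebrum site.

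RNA-binding, ubiquitin and scaffold proteins numbered 6, with 107 and 80 sites. Usp29, a ubiquitin protease of the imprinted Peg3 domain that is transcribed from the paternal allele, had 37 cerebellum and 28 cerebrum sites, 22 of them common. Its sites crowded into exon 9 of 9, of 6088 nt, with 29 and 24, most of them coding. Nova1, a neuronal splicing regulator, had 27 and 22. The WD-repeat scaffold Dcaf7 had 12 and 8, Cdv3 had 20 and 17, Ggnbp2 had 6 and 3, and Klhl1, a kelch protein of Purkinje and other neurons, had 5 and 2.

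Signalling enzymes and adaptors numbered 8, with 105 and 78 sites, and their differences were 3 to 5. Sash1, a scaffold with SAM and SH3 domains, had 19 and 14, and Rapgef6, an exchange factor for Rap proteins, had 25 and 21. Ulk2, an autophagy kinase, had 18 and 15, with every cerebrum site also listed in the cerebellum. The calcineurin subunit Ppp3cb had 13 and 10, the citron kinase Cit 12 and 9, and Kndc1, a guanine nucleotide exchange factor known from cerebellar granule cells, 10 and 7. Abi1, an actin regulator, and Adcy8, a calcium-stimulated adenylyl cyclase, each had 4 and 1.

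The release machinery was represented by Rims3, with 20 and 16 sites, and Rims1, with 11 and 8, which organise the presynaptic active zone. In Rims1 only 2 sites were common to both libraries. The 6 metabolic and redox enzymes had 39 and 19 sites together: Cyp51 of sterol synthesis and the phosphodiesterase Gde1 with 8 and 5 each, Ptar1 with 7 and 4, Aldh5a1 of GABA breakdown with 6 and 3, and the phosphoglucomutase Pgm1 and selenoprotein T (Selenot) with 5 and 1 each. In Pgm1, 3 of the 4 cerebellum-only sites were intronic, and in Selenot all 5 lay in the 3′ UTR. The last 6 genes, membrane or secreted proteins of less known function, were Endod1 with 18 and 15, Ccdc184 with 14 and 10, Lhfpl3 with 12 and 6, Creg2 with 11 and 5, Tmem196 with 5 and 2 and Tmem117 with 4 and 1. All 8 cerebellum-only sites of Lhfpl3 were intronic, while those of Creg2, 8 as well, were all in the 3′ UTR.

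The cerebellum-only sites of the 75 genes lay mostly in 3′ UTRs and coding sequence. The 3′ UTR held 47.5% (43.5% to 51.6%) of the 579, the CDS 30.2% (26.6% to 34.1%), the 5′ UTR 5.35% (3.80% to 7.50%) and introns 15.7% (13% to 18.9%). The 689 common sites of the same genes had 52.2% (48.5% to 56%), 38.8% (35.2% to 42.4%), 6.97% (5.29% to 9.12%) and 0.581% (0.226% to 1.48%). The intron shares of the common and the cerebellum-only sites therefore did not overlap in their intervals. Of the cerebellum-only sites in the other genes the 3′ UTR held 48.5% (47.4% to 49.6%), the CDS 26.7% (25.8% to 27.7%) and introns 18.2% (17.3% to 19%).

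The 5′ UTR and exons outside complete coding isoforms had intervals that did not overlap between the 75 genes and the others. Such exons held 1.21% (0.587% to 2.47%) of the cerebellum-only sites of the 75 genes and 4.50% (4.06% to 4.98%) of those in the other genes. The 5′ UTR share was 5.35% in the 75 genes and 2.10% (1.80% to 2.44%) in the others for cerebellum-only sites, and 6.97% and 2.31% (2.17% to 2.46%) for common sites. These 5′ UTR sites came from 25 of the 75 genes, such as Ntng1, Atp2b4, Gpr158, Cdh7 and Slc17a6, and 19 of them held a cerebellum-only one. The common sites of the 75 also had a lower intron share than those of the other genes, 0.581% against 8.62% (8.35% to 8.90%). Zfhx4 and Zfhx3 weigh on the coding share: without them the CDS held 30.8% (27.1% to 34.8%) of the common sites and the 3′ UTR 58.2% (54% to 62.2%).

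**Figure D4:**
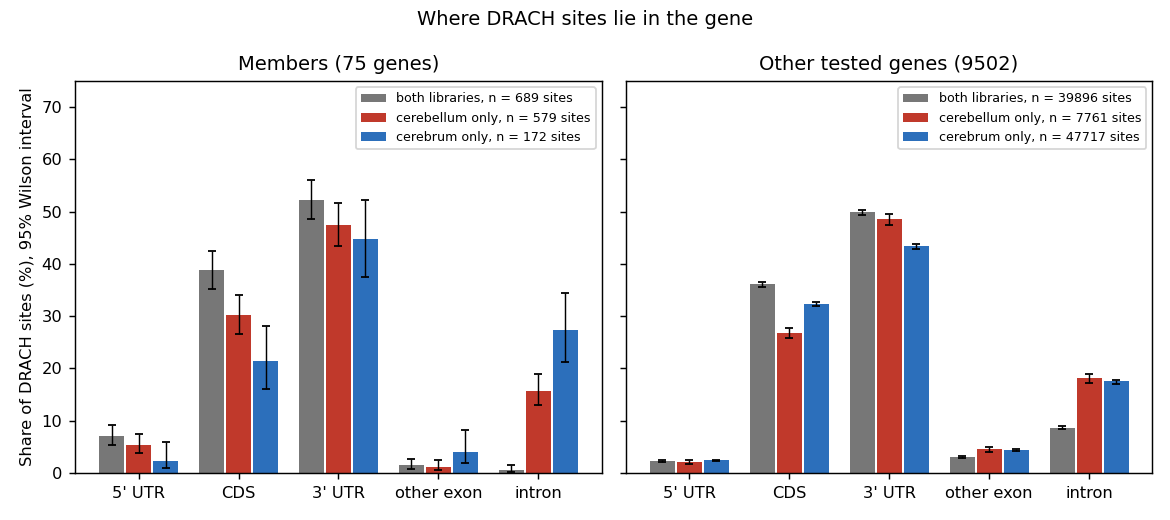
Share of DRACH sites by region of the gene (vertical, percent with 95% Wilson interval) for sites of both libraries (grey), the cerebellum only (red) and the cerebrum only (blue), in the 75 members (left) and the other 9502 tested genes (right). The 3′ UTR holds the most sites in every class, and intronic sites make up 0.581% of the common sites of the members and 15.7% of their cerebellum-only sites.

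Around the stop codon the intervals of the classes overlapped within the 75 genes. Within 200 nt of it on the coding isoform lay 17.7% (14.5% to 21.3%) of the cerebellum-only sites of the 75 genes and 18.8% (16% to 21.9%) of the common ones, with 17.6% (16.7% to 18.6%) of the cerebellum-only sites in the other genes. The common sites of the other genes stood higher, at 22.7% (22.2% to 23.1%), an interval that overlapped none of these. Without Zfhx4 and Zfhx3 the common sites of the remaining 73 were at 21.9% (18.6% to 25.6%), which did overlap it. The last exon held 74% (69.9% to 77.7%) of the cerebellum-only and 72% (68.5% to 75.3%) of the common sites. In the other genes these shares were 76.4% (75.3% to 77.4%) and 74.4% (73.9% to 74.8%). Within the 3′ UTR the median cerebellum-only site lay 889 nt downstream of the stop codon, the median common site 639 nt and the median cerebrum-only site 1271 nt. In the other genes, whose 3′ UTRs were shorter, these medians were 735, 462 and 551 nt.

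The cerebellum-only sites mostly lay in exons and stretches that were also marked in the cerebrum. Of the 488 cerebellum-only sites on exons, 90.8% (87.9% to 93%) lay in an exon that also held a cerebrum site of the gene, and in the other genes this was 91.8% (91.1% to 92.4%). Of all 579, 67.5% (63.6% to 71.2%) lay between the outermost cerebrum sites of their gene, 15.5% (12.8% to 18.7%) upstream of them and 16.9% (14.1% to 20.2%) downstream. The nearest cerebrum DRACH site of the gene was at a median of 191 nt, and 24.4% (21% to 28%) had one within 50 nt. In the other genes the median was 108 nt and the share within 50 nt 33.7% (32.7% to 34.8%). The part of the choice of genes in the longer distance was not tested. The cerebrum-only sites of the other genes lay at a median of 193 nt from the nearest cerebellum site, with 21% (20.6% to 21.4%) within 50 nt.

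Among the 5-mers at the cerebellum-only sites GGACT came first with 11.2% (8.91% to 14.1%), before AGACT with 10.4% (8.14% to 13.1%), and their intervals overlapped. Common sites of the 75 genes had GGACT at 13.4% (11% to 16.1%), and sites found only in the cerebrum at 6.98% (4.04% to 11.8%). In the other genes GGACT made up 8.21% (7.62% to 8.84%) of the cerebellum-only sites. It was at 13.7% (13.3% to 14%) of their common and 12.7% (12.4% to 13%) of their cerebrum-only sites. The base before the methylated adenosine was G at 61.3% (57.3% to 65.2%) of the cerebellum-only, 62.3% (58.6% to 65.8%) of the common and 53.5% (46% to 60.8%) of the cerebrum-only sites. The last base was T at 52.2% (48.1% to 56.2%) of the cerebellum-only and 60.8% (57.1% to 64.4%) of the common sites. The other genes showed the same split, with 51.1% (49.9% to 52.2%) and 62.2% (61.7% to 62.6%).

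The genes were longer than most tested genes. Their longest coding isoforms had a median of 4945 nt, a 3′ UTR of 2471 nt and a longest exon of 2866 nt, against 3647.5, 1489 and 1919 nt in the other genes. The median gene interval was 113886 nt against 29778 nt. Of the DRACH motifs on these isoforms, 12.8% (12.2% to 13.6%) were called in the cerebellum, against 5.07% (5.02% to 5.12%) in the other genes. That contrast is largely set by the choice of the genes, which used their cerebellum DRACH sites. In the cerebrum the shares were 8.85% (8.28% to 9.45%) and 8.91% (8.85% to 8.97%), with intervals that overlapped. Without Zfhx4 and Zfhx3 they were 11.5% (10.8% to 12.2%) in the cerebellum and 7.77% (7.21% to 8.37%) in the cerebrum for the remaining 73, the latter below the share of the other genes. The choice of the genes used their cerebrum DRACH sites too, so the cerebrum shares are not independent of it. The 4564 genes with at least 3 more sites in the cerebrum were long as well, with medians of 4410.5 nt for the isoform, 1867.5 nt for the 3′ UTR and 2453.5 nt for the longest exon, and 12.1% (12% to 12.2%) of their motifs were called in the cerebrum. Length thus went with a difference of 3 or more in both directions, and its part was not tested.

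In most of these genes the cerebellum library did not list more sites outside DRACH than the cerebrum library. The cerebrum library was the larger as a whole, with 188295 sites, 88016 of them DRACH, against 79355 and 49274. The 75 genes held 862 sites outside DRACH in the cerebellum, against 1310 in the cerebrum. Of these genes 51, or 68.0%, had fewer in the cerebellum, while 5, or 6.67%, had equal numbers. The share of all tested genes with fewer was not computed. Still, 19 genes, or 25.3%, had more in the cerebellum, while the share over all 9577 genes was 4.04%. Among the 19 were Zfhx4 with 32 and 18, Zfhx3 with 32 and 21, Ndst4 with 12 and 1, Ebf3 with 9 and 2 and Ntng1 with 37 and 28. In Runx1t1 the numbers were 19 and 80, in Dpp10 28 and 75 and in Rims1 24 and 65, so the cerebrum library listed more sites in these genes when all sequence contexts were counted.

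Of the 75 genes, 12 were on at least 1 of 12 gene lists. The share of all tested genes on a list was not counted, so 12 has no background here. On every list most tested genes had fewer DRACH sites in the cerebellum, as did 85.5% of all tested genes. That the members differed from most of their list follows from the rule. Of the cerebellar and rhombic lip transcription factors, 4 of the 21 with a cerebrum DRACH site, or 19%, were members, namely Lhx1, Meis1, Mab21l1 and Ebf3, beside 0.783% of all tested genes, but the median difference of the 21 was -2, as over all tested genes. A further 12 factors of that list had cerebellum sites and no cerebrum site and so fell outside the rule, among them Tfap2b with 17 sites and Mab21l2, the close relative of Mab21l1, with 11. Of the Purkinje cell lineage genes, 4 of 23, or 17.4%, were members, among them Rora, Lhx1 and Cdh7, and the median difference was -3. Bcl11a with 14 and 34 and Dab1 with 19 and 39 are examples in the opposite direction.

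The remaining lists held 1, 2 or no members. Beside their shares stand 0.783% of all tested genes and 2.10% of the 3571 genes with at least 4 cerebellum DRACH sites. The list shares themselves are over all tested genes of a list. The granule cell and Hedgehog list held Sema6a among 36 genes, or 2.78%, with a median of -4.50, the axon guidance list Dscam and Sema6a among 52, or 3.85%, with -4, and the cadherin list Cdh7 among 29, or 3.45%, with -7. The Wnt and BMP list held Lef1 among 37, or 2.70%, with -3, and the voltage-gated channel list Scn1a and Kcnc4 among 48, or 4.17%, with -5. There was none among 21 genes of GABA and glycine signalling, 33 of the cell cycle, 71 of chromatin regulation and 36 forebrain transcription factors, with medians of -2, -2, -6 and -8.50, and none on the Hox and hindbrain segment list, of which 1 gene could be tested. The cell cycle genes had 7 cerebellum and 111 cerebrum DRACH sites in all.

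**Figure D5:**
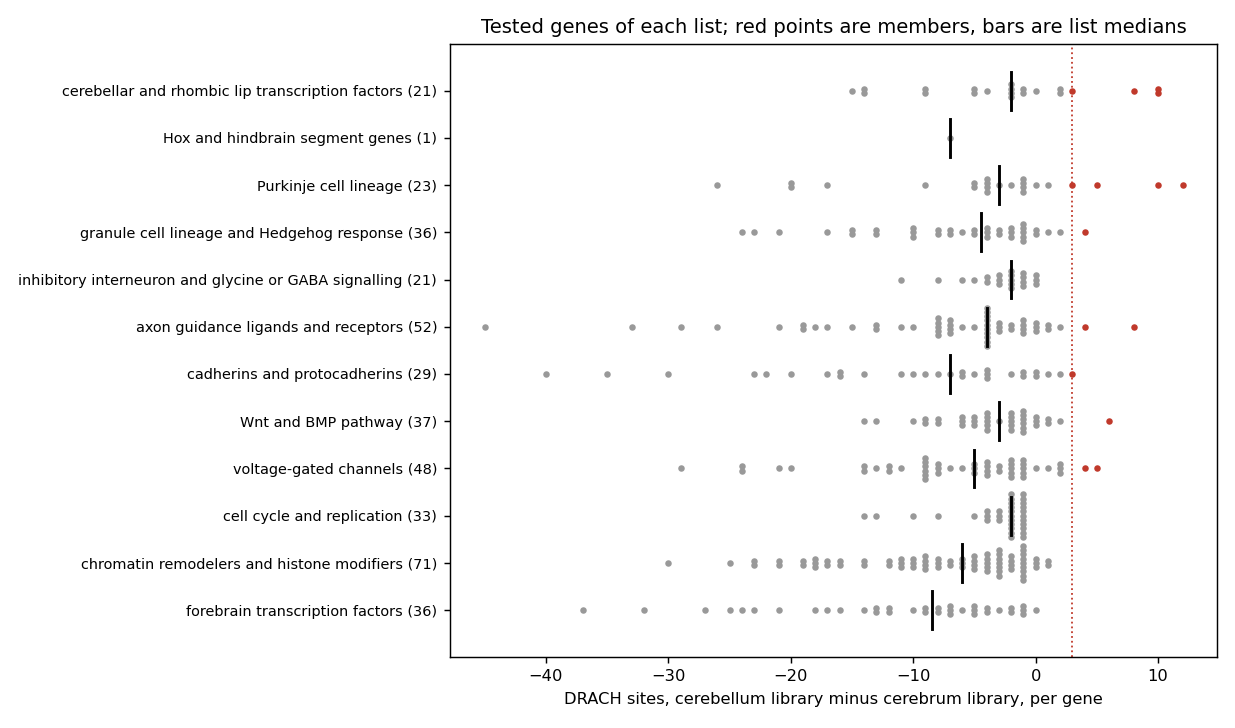
Difference in DRACH sites per gene (horizontal, cerebellum minus cerebrum library) for the tested genes of 12 lists, whose number of tested genes stands in brackets; red points are members, black bars list medians and the dotted line the difference of 3. The medians lie between -8.50 and -2, and 8 of the 12 lists hold 1 member or none, while the cerebellar factor and Purkinje cell lists hold 4 each.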

How the data were processed

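GLORI libraries of P0 cerebellum and cerebrum, 1 each, were compared. The authors called sites from reads aligned to mm10 and, separately, to a version of it with PWK bases, using GLORI-tools, and pooled the results per library. A read count over 8 and a methylation rate over 0.1 were required. The deposited files hold genomic positions with strand (unit: position, with no rate, read count or other measured value), so the depth is unknown.

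Positions were read as deposited, and the 5-mer was looked up in GRCm38 with pysam 0.24.0. Genes came from GENCODE M21, which is not the release the study names. Sites with the same position and strand in both libraries were common. Regions and distances used the longest coding isoform covering a site. Distances to the stop codon were counted from its last base. The median distance to the stop codon, 5-mers and shares with 95% Wilson intervals were computed in Python 3.11.15. The steps were tested on simulated data.

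The members and lists were chosen with earlier results of these data known, and the midbrain list and role groups were made after the values were seen. Genes described in detail were the 20 with the largest difference, members on a list, the 5 with most cerebellum-only sites and no cerebrum-only site, and the 5 with most cerebrum sites. The others are named so that the members are accounted for. One member and some other genes are counted in the totals but not reported here by name.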

Additional observations from a re-analysis of the deposited data

Results flagged for a closer look

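The rule was applied to genes outside the autosomal coding set, which enter no comparison above. On chromosome X, 3 of 342 protein_coding genes with a cerebrum DRACH site, or 0.877%, had at least 3 more DRACH sites in the cerebellum library, among them Dgkk, a diacylglycerol kinase, with 7 against 1, and Cd99l2, an adhesion protein, with 11 against 8. Among autosomal long noncoding RNA genes, 1 of 697, or 0.143%, did so, Gm20649 with 4 against 1.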

How the results depend on the processing

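With a difference of at least 2 the number of genes was 159 and with at least 5 it was 29, against 75. With the cerebrum counts scaled to the cerebellum total it was 950, all 75 among them. The genes with at least 5 more held 685 cerebellum and 429 cerebrum sites, of which the cerebellum-only share of cerebellum sites was 48.6%, against 45.7% over the 75 and 40.8% with exonic sites only. The window of 400 nt held 28.3% of the cerebellum-only sites. With a difference of at least 2, 21 members were on a list, against 12. Exonic sites only gave 67 genes, 60 of them among the 75. All 5-mers together gave 71, of which 31 were among the 75, RRACH gave 62, of which 56 were, and complete coding isoforms, a setting chosen after seeing the data, gave 70, of which 59 were. The number was 76 with sites of 1 gene only and 75 with sites within 1 nt counted as common. The list counts of single lists moved in 6 of 24 cases. No paired analysis was possible because each tissue has 1 library. Differences between animals, dissections or library preparations were not measured, and site lists show neither methylation level nor RNA level.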

Other observations

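A further 44 autosomal protein_coding genes had at least 3 DRACH sites in the cerebellum library and none in the cerebrum library, and were left out by the requirement of 1 cerebrum site. Among genes with at least 4 DRACH sites in the cerebellum library, the lowest number with which a gene could meet the rule, the 75 members were 2.10% of 3571.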
